A study of Homo sapiens with 3 samples.

Results

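The ETS family genes examined here are ETS1, ETS2, ELF1, ELF3, EHF, ELK1, GABPA, ETV4, ETV5 and FLI1, 10 of the 19689 protein-coding genes outside the mitochondrial genome in GENCODE 44. They were given as a list of names, and each was described by the peaks of 3 chromatin immunoprecipitation sequencing (ChIP-seq) libraries within 1 kb of its protein-coding transcription start sites (TSS), in its gene body and up to 50 kb on either side. ChIP-seq recovers and sequences the DNA that an antibody pulls down with its protein, and a peak is a stretch of the genome called as enriched. The libraries came from HuCCT1 cells, an established line derived from a human bile duct cancer (cholangiocarcinoma), with 1 library each for an antibody against Strawberry Notch 1 (SBNO1), an antibody against TAF4, which belongs to the basal factor TFIID that recognises core promoters, and a control immunoglobulin (IgG). The study used ChIP-seq to follow up the interaction of SBNO1 with TAF4. Material of at least 3 biological replicates was pooled for each antibody before sequencing, so that every value below comes from 1 library, has no replicate error and could not be tested between antibodies.

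ETS factors share a winged helix-turn-helix DNA-binding domain that recognises the core GGAA, and several of them are targets of signalling, with ETS1, ETS2 and ELK1 among those that the kinase ERK phosphorylates. ELF3 and EHF are epithelial members of the family, as are ELF5 and SPDEF outside the 10 genes, FLI1 is best known from blood and endothelial cells, and ELF1 is broadly expressed. ELK1 works with the serum response factor SRF at early response genes, GABPA is the DNA-binding subunit of the GA-binding protein (nuclear respiratory factor 2), and ETV4 and ETV5 belong to the PEA3 group of ERK and fibroblast growth factor targets.

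The lists held 16147 SBNO1, 12763 TAF4 and 1598 IgG peaks, and the number of reads behind them is unknown. Of 8 epithelial genes taken as biliary markers (KRT7, KRT19, KRT8, KRT18, EPCAM, SOX9, CDH1, CLDN4), 8 had a TAF4 peak and 0 an IgG peak within 1 kb of a TSS. An SBNO1 peak was found there in 6, all but KRT7 and CDH1. Of all protein-coding genes, 25.7% had an SBNO1, 31.9% a TAF4 and 1.41% an IgG peak there. Among 4 hepatocyte markers, SERPINA1 alone had a TAF4 peak there and none had an SBNO1 peak. The 2 blood and 2 endothelial markers had no peak of any list within 1 kb of a TSS. In the gene body and 50 kb on either side, the median number of SBNO1 peaks was 6.5 for the biliary and 2 for the hepatocyte markers. It was 2.5 for the blood and 3 for the endothelial markers, beside 1 for all genes. A peak marks where an antibody pulled down DNA and is no measure of transcription. The identity of the line was not tested here.

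The promoters of these genes were examined first. An SBNO1 peak was found within 1 kb of a coding start in 8 of the 10 ETS genes (80.0%, exact 95% Clopper-Pearson interval 44.4% to 97.5%), all but ELF1 and FLI1, beside 25.7% of all protein-coding genes. A TAF4 peak was found there in 9 of the 10 genes (90%, interval 55.5% to 99.7%), all but FLI1, beside 31.9% of all genes. Both proteins had a promoter peak in 8 of the 10 genes, beside 22.6% of all genes. No IgG peak lay within 1 kb of a TSS of any of the 10 genes, which at this number of genes allows a share of up to 30.8% by the same interval, beside 1.41% of all genes. These intervals cover counting error only, and the genes are no replicates. The genes were chosen with earlier results of these data known, and how far that choice set these shares was not tested. The 10 genes have 2 to 10 protein-coding TSS each with a median of 5, while the median of all genes is 3. Among the 13808 genes with 2 to 10 such sites, 28.0% had an SBNO1, 34.9% a TAF4 and 1.55% an IgG promoter peak. Of the peaks at or above the median score of their list, an SBNO1 promoter peak was found in 5 of the 10 ETS genes, beside 13.1% of all genes, and a TAF4 promoter peak in 5, beside 19.6%.

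Sequences at these starts are shown for 5 of the genes in which a peak overlaps the DNA upstream of the TSS outside untranslated exons. They allow the base composition and the motifs of starts near a peak to be compared. The ETV4 start shown lay 27 bp from the SBNO1 and 35 bp from the TAF4 peak, and the others were covered by both. The ETV5 start shown is internal, and the outermost one at 186110318 lay 592 bp from SBNO1 and 804 bp from TAF4. Each line gives the 200 bases that end just before a TSS on GRCh38, printed from 5′ to 3′ along the gene, and capitals mark exact matches to a motif searched on either strand: CCAAT, the box bound by NFY (ATTGG on the other strand), GGGCGG, the box of KLF and SP factors (CCGCCC on the other strand), CCGGAA, a common ETS site (TTCCGG on the other strand), the AP-1 site TGAGTCA or TGACTCA, and TATAAA. Matches to different motifs may share bases at their ends.
ETS1 internal start, chr11:128522311-128522510 (minus strand): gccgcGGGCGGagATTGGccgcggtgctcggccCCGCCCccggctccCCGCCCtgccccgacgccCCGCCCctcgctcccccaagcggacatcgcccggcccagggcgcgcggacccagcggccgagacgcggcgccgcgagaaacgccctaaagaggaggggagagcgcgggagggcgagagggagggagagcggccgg
ETS2, chr21:38804983-38805182 (plus strand): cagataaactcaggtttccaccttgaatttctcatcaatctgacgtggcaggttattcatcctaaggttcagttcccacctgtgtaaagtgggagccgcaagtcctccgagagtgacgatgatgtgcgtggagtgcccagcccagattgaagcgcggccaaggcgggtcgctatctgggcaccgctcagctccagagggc
ELK1, chrX:47650592-47650791 (minus strand): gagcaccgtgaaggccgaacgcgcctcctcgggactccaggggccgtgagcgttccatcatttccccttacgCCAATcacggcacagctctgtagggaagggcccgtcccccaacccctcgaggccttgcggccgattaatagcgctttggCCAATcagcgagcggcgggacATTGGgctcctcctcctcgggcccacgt
ETV4 outer start, chr17:43579621-43579820 (minus strand): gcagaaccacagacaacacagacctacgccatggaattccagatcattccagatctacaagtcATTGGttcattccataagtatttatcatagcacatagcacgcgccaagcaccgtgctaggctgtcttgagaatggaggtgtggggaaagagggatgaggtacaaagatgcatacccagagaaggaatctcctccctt
ETV5, chr3:186109090-186109289 (minus strand): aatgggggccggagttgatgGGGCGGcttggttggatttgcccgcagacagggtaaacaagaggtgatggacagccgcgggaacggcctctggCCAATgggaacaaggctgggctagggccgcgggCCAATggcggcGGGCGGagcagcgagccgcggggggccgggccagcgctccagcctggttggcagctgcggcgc

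The starts differed widely in composition. The stretch at ETS1 was 80.5% G and C with 4 KLF/SP boxes and 1 CCAAT box, whereas that at the outer ETV4 start was 47.5% G and C with 1 CCAAT box. At ETS2 none of the motifs was found. The stretch of ELK1 held 3 CCAAT boxes, and that of ETV5 held 2 CCAAT and 2 KLF/SP boxes. Of the 200 bases upstream of all 78567 protein-coding TSS, 26.7% held a CCAAT box, 46.0% a KLF/SP box, 15.2% the ETS site, 7.05% TATAAA and 2.62% an AP-1 site. A match is a string of letters and no measured binding site.

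The promoter peaks are described next, by group of the family. ETS1, a proto-oncogene that acts downstream of ERK (ENSG00000134954.14, chr11:128458761-128587558 on GRCh38, minus strand), carried its promoter peaks at an internal group of starts and not at its outermost one. The SBNO1 peak at chr11:128522308-128522905 was 598 bp wide (score 1000), and that of TAF4 at chr11:128522277-128522911 was 635 bp wide (score 1000). The score is the authors' value per peak, a whole number that ends at 1000 and serves here only to order peaks within a list. Both peaks covered the TSS at position 128522310, and no peak of any list lay within 1 kb of the TSS at 128587558 or at 128505394. The microRNA gene MIR6090 also starts within 1 kb of these peaks. With 1 TSS per gene, the outermost, ETS1 would not count as having a promoter peak.

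ETS2, the close relative of ETS1 (ENSG00000157557.13, chr21:38805183-38824955, plus strand), had an SBNO1 peak of 522 bp at chr21:38804685-38805206 with a score of 639. A TAF4 peak of 515 bp at chr21:38804788-38805302 with a score of 866 overlapped it, and another TAF4 peak of 693 bp at chr21:38805496-38806188 with a score of 763 was centred in an intron and had no SBNO1 peak. TAF4 peaks thus covered 6 of the 9 protein-coding starts of ETS2 and the SBNO1 peak covered 1.

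The epithelial factors ELF3 (ENSG00000163435.16, chr1:202007945-202017183, plus strand) and EHF (ENSG00000135373.13, chr11:34621093-34663288, plus strand) each had 2 promoter peaks per protein. At ELF3, the SBNO1 peak at chr1:202008172-202008583 (412 bp, score 1000) overlapped the TAF4 peak at chr1:202008062-202008609 (548 bp, score 996), and the SBNO1 peak at chr1:202010314-202010905 (592 bp, score 686) overlapped the TAF4 peak at chr1:202010103-202010850 (748 bp, score 1000). All 4 had their centre in an untranslated exon of ELF3, and the antisense gene ELF3-AS1 starts within 1 kb of the downstream pair. At EHF, the SBNO1 peaks at chr11:34620697-34621154 (458 bp, score 962) and chr11:34621323-34622256 (934 bp, score 319) both overlapped 1 TAF4 peak, at chr11:34620785-34621531 (747 bp, score 1000). A further TAF4 peak at chr11:34623989-34624340 (352 bp, score 723) covered 3 starts within the gene where SBNO1 had none within 1 kb. SBNO1 and TAF4 were therefore called together within 1 kb of the first starts of ELF3 and EHF. Both covered the first start of EHF, whereas that of ELF3 lay 227 bp from the SBNO1 and 117 bp from the TAF4 peak.

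ELK1 (ENSG00000126767.18, chrX:47635521-47650604, minus strand) and GABPA (ENSG00000154727.11, chr21:25734570-25772460, plus strand) had a single promoter peak for each protein. The ELK1 peaks, SBNO1 at chrX:47650585-47651162 (578 bp) and TAF4 at chrX:47650523-47651019 (497 bp), had low scores for their lists, 353 and 649 beside medians of 869 over all SBNO1 and 935 over all TAF4 peaks. The GABPA peaks, SBNO1 at chr21:25734847-25735121 (275 bp) and TAF4 at chr21:25734805-25735121 (317 bp), both had a score of 1000 and ended at the same base. ATP5PF, a subunit gene of the ATP synthase, also starts within 1 kb of them. The GABPA peaks held the only ETS site among the central 200 bases of all promoter peaks of the 10 genes. It is shown for that reason with 30 bases in all, the ETS site in capitals.
GABPA, chr21:25734895-25734924 (plus strand): cctccgctctacTTCCGGccctggctccgc

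Next, the PEA3 genes differed from each other. ETV4 (ENSG00000175832.13, chr17:43527844-43579620, minus strand) had 4 SBNO1 promoter peaks and 1 TAF4 promoter peak. At its outer start, the SBNO1 peak at chr17:43579647-43579976 (330 bp, score 1000) overlapped the TAF4 peak at chr17:43579655-43580111 (457 bp, score 618), and an SBNO1 peak at chr17:43578734-43579339 (606 bp, score 369) stood alone. At its inner group of starts, SBNO1 peaks at chr17:43546315-43546614 (300 bp, score 747) and chr17:43544651-43544845 (195 bp, score 1000), the latter also within 1 kb of an annotated DHX8 transcript start, had no TAF4 peak, and TAF4 lay within 1 kb of 1 of the 8 ETV4 starts while SBNO1 lay within 1 kb of 7. ETV5 (ENSG00000244405.8, chr3:186046314-186110318, minus strand) showed the opposite split, with 1 SBNO1 peak at chr3:186109006-186109726 (721 bp, score 545) that overlapped a TAF4 peak at chr3:186109033-186109514 (482 bp, score 1000), and TAF4 peaks without SBNO1 at chr3:186107646-186107869 (224 bp, score 1000) and, in the intron beyond 1 kb, at chr3:186104051-186104353 (303 bp, score 1000). With 1 library per antibody, a peak present in one list and missing from the other cannot be told apart from a difference in depth.

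ELF1 and FLI1 were the genes without an SBNO1 promoter peak. ELF1 (ENSG00000120690.16, chr13:40931924-41061440, minus strand) had no SBNO1 peak within 50 kb either. Its TAF4 promoter peak at chr13:41061363-41061918 (556 bp, score 623) covered the outermost ELF1 start at position 41061440 and also a start of WBP4, a splicing factor gene, which was the nearer of both to the centre of the peak. The other TAF4 peak of ELF1 lay in an intron at chr13:40994038-40994258 (221 bp, score 958). FLI1 (ENSG00000151702.18, chr11:128686535-128813267, plus strand) had no peak of any list within 1 kb of its 5 protein-coding starts. Its peaks lay in its introns and downstream.

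The plot of peak positions along each gene shows where the peaks lay beyond the promoters.

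**Figure D1:**
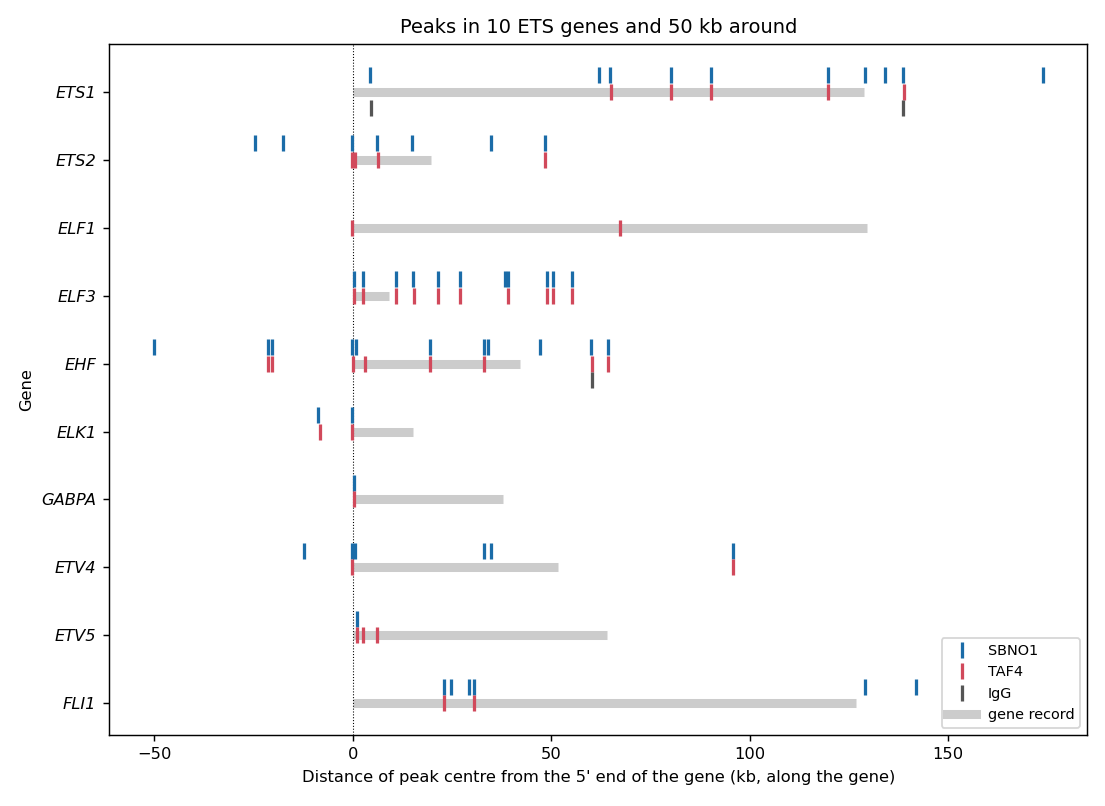
Peak centres of the SBNO1 (blue), TAF4 (red) and IgG (dark grey) lists along each of the 10 ETS genes and 50 kb on either side. The horizontal axis is the distance in kb from the 5′ end of the gene record, counted along the gene, and grey bars span the gene records. ELF3 and EHF carry 11 SBNO1 ticks each, most of them paired with a TAF4 tick, ELF1 carries no SBNO1 tick, and the 3 IgG ticks lie at ETS1 and EHF.

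In the gene body, 9 of the 10 ETS genes had an SBNO1 peak (33.7% of all genes), 9 a TAF4 peak (35.9%) and 1, ETS1, an IgG peak (2.23%). In the gene body and 50 kb on either side, an SBNO1 peak was found for 9 of the 10 genes (62.3% of all genes), a TAF4 peak for 10 (61.7%) and an IgG peak for 2, ETS1 and EHF (6.76%). The windows held 55 SBNO1, 39 TAF4 and 3 IgG peaks in all. Of the SBNO1 peaks, 13 lay within 1 kb of a TSS of the ETS gene, 15 elsewhere in the gene body, 7 upstream and 20 downstream. Of the TAF4 peaks these numbers were 13, 10, 3 and 13. The nearest protein-coding TSS belonged to the ETS gene itself for 50 SBNO1, 36 TAF4 and 3 IgG peaks.

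**Figure D2:**
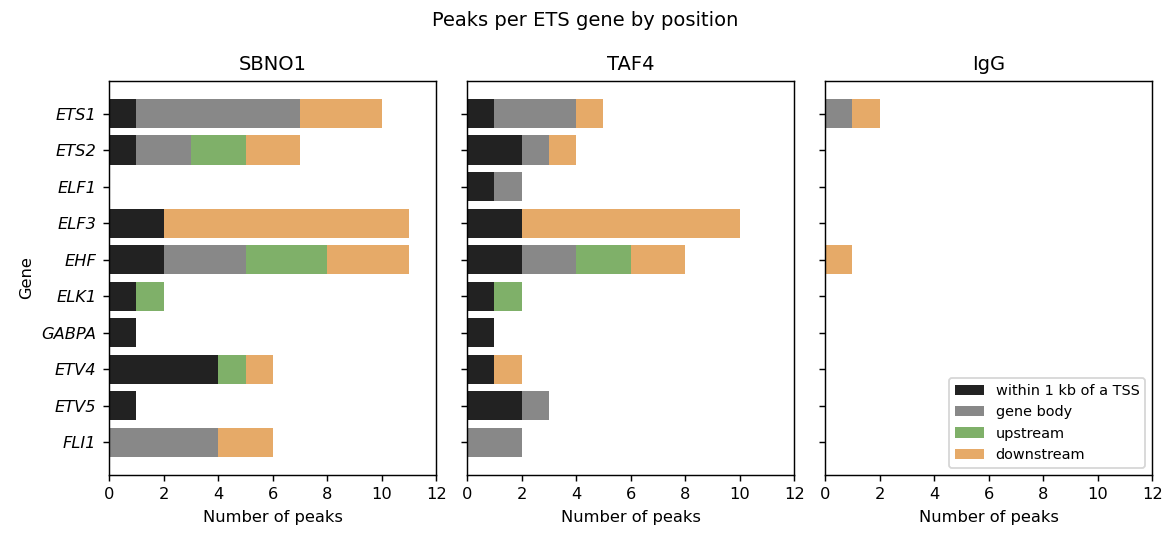
Number of peaks per ETS gene in each list, stacked by position: within 1 kb of a protein-coding TSS of the gene, elsewhere in the gene body, upstream and downstream within 50 kb. The long bars belong to ETS1, ELF3 and EHF, and the 11 SBNO1 peaks of ELF3 are 2 promoter and 9 downstream peaks.

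The number of peaks differed between the genes. The median gene of the 10 had 6 SBNO1 and 2.5 TAF4 peaks in its window, while the median of all protein-coding genes was 1 in both lists. Since long genes have wide windows, the numbers were also divided by the width of the window, and the medians were then 3.30 SBNO1 and 1.78 TAF4 peaks per 100 kb, beside 0.739 and 0.712 for all genes. ETS1, ELF3 and EHF together held 32 of the 55 SBNO1 and 23 of the 39 TAF4 peaks. Per 100 kb, ETS2 had more peaks than ETS1, with 5.84 against 4.37 for SBNO1 and 3.34 against 2.19 for TAF4. The shares of genes with as many or more peaks, given below, are of peak numbers not divided by the width of the window.

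ELF3 had the densest window of the 10 genes, with 11 SBNO1 and 10 TAF4 peaks, or 10.1 and 9.15 per 100 kb. As many or more SBNO1 peaks were found for 151 genes (0.767% of all) and as many or more TAF4 peaks for 145 (0.736%). All 9 SBNO1 peaks of ELF3 outside its promoters lay downstream of the gene, with their edges between 7807 and 52478 bp from the nearest ELF3 start, and none was nearer to a TSS of another protein-coding gene. Of the 11 SBNO1 peaks, 10 overlapped a TAF4 peak, and no IgG peak lay in the window. The downstream SBNO1 peak of the highest score, with ties ordered by width, was at chr1:202034654-202035411 (758 bp, score 1000).

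EHF also had 11 SBNO1 peaks (0.767% of genes had as many or more) with 8 TAF4 peaks (1.81%), or 7.74 and 5.63 per 100 kb. They lay on both sides of the gene and in its introns, and 8 of the 11 SBNO1 peaks overlapped TAF4. The highest-ranking of the distal ones lay upstream at chr11:34599437-34600017 with a score of 1000. An IgG peak at chr11:34681201-34681480 (280 bp, score 881) overlapped an SBNO1 peak (score 998) and a TAF4 peak (score 1000) downstream of EHF, and the part of background in that pair was not tested.

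The window of ETS1 held 10 SBNO1 peaks (1.22% of genes had as many or more) and 5 TAF4 peaks (7.42%), and all 5 TAF4 peaks overlapped SBNO1. The window also held 2 IgG peaks, and 1.28% of genes had as many or more. Both IgG peaks of ETS1 overlapped an SBNO1 peak with a score of 1000. The IgG peak at chr11:128448601-128448978 (378 bp, score 590) lay within the distal SBNO1 peak that ranked highest, chr11:128448522-128449167, where TAF4 also had a peak. The IgG peak at chr11:128582925-128583257 (333 bp, score 848) lay on an intronic SBNO1 peak without TAF4, at chr11:128582997-128583245. Without the peaks that overlap IgG, the 10 windows held 52 SBNO1 and 37 TAF4 peaks.

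At ETS2 there were 7 SBNO1 peaks (3.85% of genes had as many or more) and 4 TAF4 peaks (12.8%), and 3 of the 7 overlapped TAF4. Its highest-ranking distal SBNO1 peak, at chr21:38853413-38853936 (score 1000), lay 43777 bp from the nearest ETS2 start and overlapped TAF4. ETV4 and FLI1 had 6 SBNO1 and 2 TAF4 peaks each (5.75% of genes had as many or more SBNO1 peaks and 37.4% as many or more TAF4 peaks), with 2 of the 6 SBNO1 peaks on TAF4 in both genes. The distal ETV4 peak of the highest score, chr17:43591886-43592105 (220 bp, score 915), had no TAF4 peak, and 1 further SBNO1 and 1 TAF4 peak in the ETV4 window lay on the start of DHX8, an RNA helicase gene. ELK1 had 2 peaks of each protein, of which 1 each lay within 1 kb of a start of the neighbouring gene UXT. GABPA had 1 of each, as 62.3% and 61.7% of all genes had at least 1, and ETV5 had 1 SBNO1 and 3 TAF4 peaks (21.7% of genes had as many or more of the latter).

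Of the 6 SBNO1 peaks of FLI1, 4 lay in its introns, with their edges between 15203 and 22543 bp from the nearest FLI1 start, and the 2 downstream ones were nearer to the potassium channel gene KCNJ1. The intronic peaks at chr11:128709295-128709929 (635 bp, score 804) and chr11:128716635-128717370 (736 bp, score 420) overlapped the TAF4 peaks of the gene, and the others, with scores of 636 and 363, did not.

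**Figure D3:**
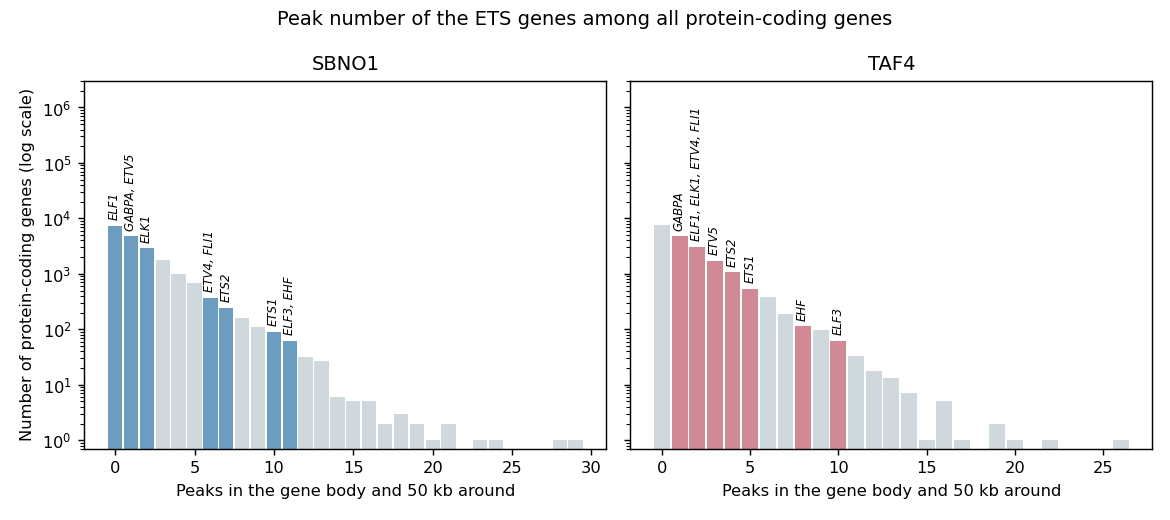
Number of protein-coding genes (log scale) by the number of SBNO1 (left) and TAF4 (right) peaks in the gene body and 50 kb on either side, over 19689 genes. Coloured columns hold the ETS genes written above them, with ELF3 and EHF at 11 SBNO1 peaks and ELF3 at 10 TAF4 peaks in the right tails.

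To compare both proteins at these genes, the overlap of their peaks was counted. Of the 55 SBNO1 peaks, 33 (60%, interval 45.9% to 73.0%) overlapped a TAF4 peak by at least 1 bp, and in the whole list the share was 59.7%. Conversely, 32 of the 39 TAF4 peaks (82.1%, interval 66.5% to 92.5%) coincided with SBNO1, beside 75.2% of the list. The intervals at the ETS genes included the shares of the whole lists, but they are wide and treat the peaks as independent. ETS1, ELF3 and EHF together held 32 of the 55 SBNO1 and 23 of the 39 TAF4 peaks. Equal shares cannot be concluded from such intervals. By position, 11 of the 15 SBNO1 peaks within 1 kb of any protein-coding TSS (73.3%, beside 83.8% of all such peaks) and 22 of the 40 farther away (55.0%, beside 49.5%) overlapped TAF4. The 15 are the 13 at ETS starts and the peaks at UXT and DHX8. An IgG peak was overlapped by 3 of the 55 SBNO1 peaks (5.45%, beside 8.57% of the list) and 2 of the 39 TAF4 peaks (5.13%, beside 10.9%). In the other direction, 84.5% of all IgG peaks overlapped an SBNO1 peak and 87.5% a TAF4 peak. The part of background in the overlap of SBNO1 and TAF4 was not tested.

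The 33 overlapping pairs had their centres a median of 64.5 bp apart, with a range of 0.5 to 631.5 bp, and the median over all pairs of the lists was 53.0 bp. The SBNO1 peaks of the ETS genes were 494 bp wide at the median, with the whole list at 397 bp, and their median score was 826, with the whole list at 869. For TAF4 the median width was 497 bp beside 400 bp, and the median score 866 beside 935. The score reached 1000 in 18 of the 55 SBNO1 peaks (32.7%, beside 34.6% of the list) and 15 of the 39 TAF4 peaks (38.5%, beside 43.0%).

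Since the study searched its SBNO1 peaks for binding motifs, motifs were counted as exact matches in the 200 bases at the centre of each peak of the ETS genes. The ETS site CCGGAA was found in 4 of the 55 SBNO1 windows (7.27%, interval 2.02% to 17.6%), beside 10.6% of all SBNO1 windows. They were the promoter peak of GABPA, the upstream peak of EHF, an intronic peak of FLI1 and the peak at DHX8 in the window of ETV4. AP-1 sites, which FOS and JUN proteins bind, were found in 15 windows (27.3%, beside 27.8%), KLF/SP boxes in 9 (16.4%, beside 21.8%), CCAAT boxes in 16 (29.1%, beside 25.8%) and TATAAA in 5 (9.09%, beside 7.49%). For each of the 5 motifs the interval of the ETS gene windows included the share of the whole list. These intervals are wide and treat peaks of the same gene as independent, so that equal shares cannot be concluded from them.

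The motifs differed by position. Within 1 kb of a protein-coding TSS, CCAAT was found in 8 of 15 windows (53.3%, interval 26.6% to 78.7%), beside 32.7% of all such SBNO1 windows. This interval included the share of all such windows. KLF/SP was found there in 7 (46.7%, beside 53.4%), the ETS site in 2 (13.3%, beside 25.1%) and AP-1 in 1, that of ETV5 (6.67%, beside 7.10%). The 15 windows include the peaks at UXT and DHX8, which both held KLF/SP. CCAAT was also found in that at UXT, and the ETS site in that at DHX8. Of all 231 IgG windows near a TSS, 51.5% held CCAAT and 54.1% KLF/SP. Farther away, AP-1 was found in 14 of 40 windows (35.0%, beside 36.5%), CCAAT in 8 (20.0%, beside 22.9%), and KLF/SP and the ETS site in 2 each (5%, beside 8.40% and 4.53%). AP-1 windows were seen at ETS1 (3 of 10 SBNO1 peaks), ETS2 (4 of 7), ELF3 (4 of 11), EHF (1 of 11), FLI1 (2 of 6) and ETV5 (1 of 1), and at none of the 9 peaks of ELK1, GABPA and ETV4.

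**Figure D4:**
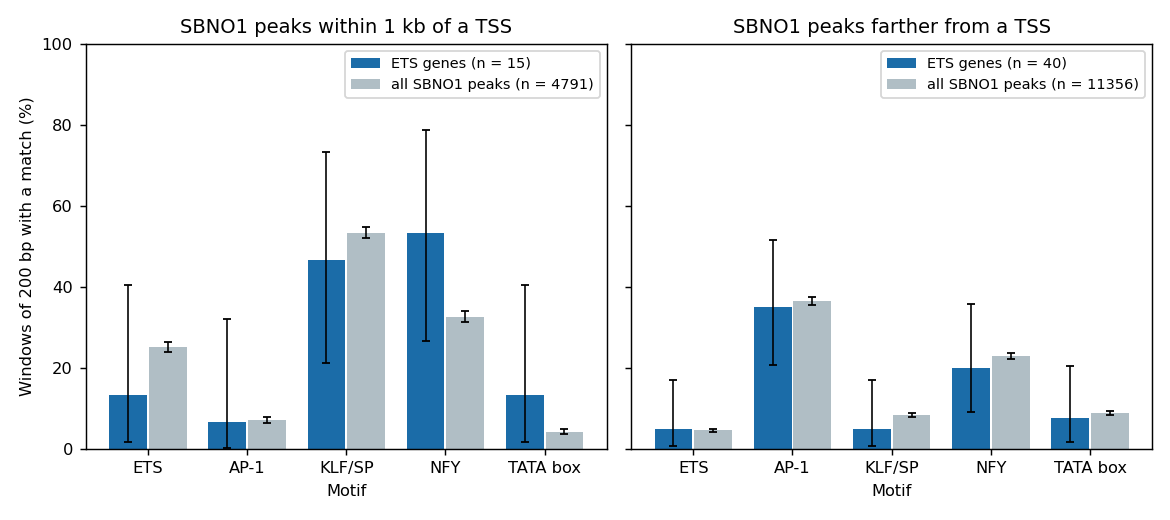
Share of 200 bp windows at SBNO1 peak centres with an exact match to each of 5 motifs, for the ETS genes (blue) and for all SBNO1 peaks (grey), within 1 kb of any protein-coding TSS (left) and farther away (right). Error bars are exact 95% Clopper-Pearson intervals for counting error, and AP-1 is found in 35.0% of the distal ETS gene windows and 6.67% of those near a TSS. The blue bars on the left include the peaks at the starts of UXT and DHX8.

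Distal windows of 5 genes are shown with the matches in capitals. The ETS1, ETS2 and ELF3 windows are the AP-1-bearing peaks of the highest score, chosen after the values were seen, the EHF window is the upstream peak with the ETS site, and the FLI1 window is the higher-scoring shared intronic peak of the gene without a bound promoter. All are 200 bases at the peak centre on GRCh38, printed along the strand of the gene.
ETS1 intron, chr11:128467639-128467838 (minus strand): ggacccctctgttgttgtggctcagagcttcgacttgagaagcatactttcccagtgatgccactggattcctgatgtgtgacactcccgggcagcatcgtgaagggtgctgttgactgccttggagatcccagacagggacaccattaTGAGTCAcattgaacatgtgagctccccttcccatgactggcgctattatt
ETS2 upstream, chr21:38787621-38787820 (plus strand): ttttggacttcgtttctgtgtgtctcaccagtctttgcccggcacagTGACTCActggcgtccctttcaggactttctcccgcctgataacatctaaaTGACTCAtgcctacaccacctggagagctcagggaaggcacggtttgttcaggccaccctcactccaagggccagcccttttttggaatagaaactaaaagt
ELF3 downstream, chr1:202063175-202063374 (plus strand): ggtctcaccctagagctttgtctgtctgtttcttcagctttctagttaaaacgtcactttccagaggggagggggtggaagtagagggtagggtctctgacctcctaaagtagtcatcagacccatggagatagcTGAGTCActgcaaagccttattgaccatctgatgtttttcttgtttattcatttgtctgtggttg
EHF upstream, chr11:34599627-34599826 (plus strand): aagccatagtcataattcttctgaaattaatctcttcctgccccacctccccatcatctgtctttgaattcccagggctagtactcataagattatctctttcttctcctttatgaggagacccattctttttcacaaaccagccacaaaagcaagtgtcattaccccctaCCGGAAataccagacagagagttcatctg
FLI1 intron, chr11:128709512-128709711 (plus strand): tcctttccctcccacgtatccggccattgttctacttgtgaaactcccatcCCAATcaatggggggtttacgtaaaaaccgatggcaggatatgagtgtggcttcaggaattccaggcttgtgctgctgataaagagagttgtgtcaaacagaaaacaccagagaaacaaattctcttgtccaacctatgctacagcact

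The ETS1 window lies in a peak shared with TAF4, and so do the ELF3, EHF and FLI1 windows. The ETS2 window, with 2 AP-1 sites, belongs to an SBNO1 peak of 247 bp with a score of 1000 that lay 17339 bp upstream and had no TAF4 peak.

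The 10 genes were then set beside the rest of the family and beside the pathway that acts on it. The genes and lists were chosen with earlier results of these data known, so that differences between them may in part reflect that choice. Of 18 other ETS genes, 5 had an SBNO1 promoter peak (27.8%, interval 9.69% to 53.5%), beside 25.7% of all genes. A TAF4 promoter peak was found in 4 (22.2%, interval 6.41% to 47.6%, beside 31.9%), both in 3 (16.7%, beside 22.6%) and an IgG one in 0 (beside 1.41%). The SBNO1 and TAF4 intervals of these 18 genes included the shares of all genes, which at this number of genes does not show equal shares. ELF2, ELK4 and the repressor ETV6 had both, ETV2 and ETV3 had SBNO1 alone, and ETV1 had TAF4 alone. ETV6 held 13 SBNO1 and 8 TAF4 peaks in its window, more SBNO1 peaks than any of the 10 genes. These numbers were not divided by the width of the ETV6 window. ETV1, the third PEA3 gene, thus had 2 TAF4 and 0 SBNO1 promoter peaks. The epithelial factors ELF5 and SPDEF, named after their values were seen, had no promoter peak in any list, and in the windows ELF5 had 4 SBNO1 and 2 TAF4 peaks and SPDEF had 0.

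Of 26 genes of the ERK cascade, its feedback regulators and ETS partners, 17 had an SBNO1 promoter peak (65.4%, interval 44.3% to 82.8%), beside 25.7% of all genes. A TAF4 promoter peak was found in 21 (80.8%, interval 60.6% to 93.4%, beside 31.9%), and 17 had both, beside 22.6% of all genes. The genes with both included the GTPase gene NRAS, the kinase gene MAP2K2, the ERK phosphatases DUSP4, DUSP5 and DUSP6, the feedback inhibitors SPRY1, SPRY4, SPRED1 and SPRED2, and the ETS partners SRF and GABPB2. EGFR, MAP2K1 and SPRY2 were among the genes with a TAF4 promoter peak and no SBNO1 one. CIC, the repressor of the PEA3 genes, was the only gene of this list with an IgG promoter peak (3.85%), beside SBNO1 and TAF4.

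**Figure D5:**
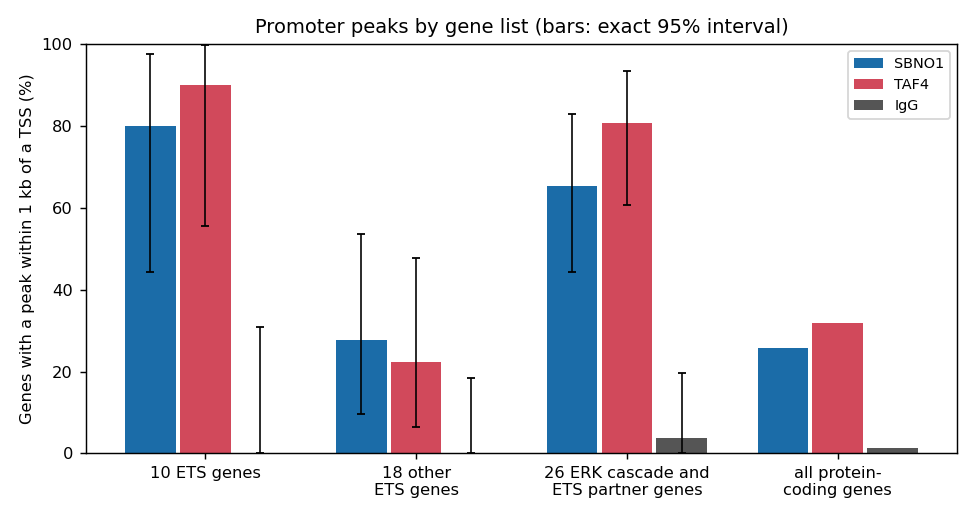
Share of genes with a peak within 1 kb of a protein-coding TSS in the SBNO1, TAF4 and IgG lists, for the 10 ETS genes, the 18 other ETS genes, the 26 ERK cascade and ETS partner genes and all protein-coding genes. Error bars are exact 95% Clopper-Pearson intervals for counting error, and the 10 ETS genes stand at 80.0% and 90% where all genes stand at 25.7% and 31.9%. The gene lists were chosen with earlier results of these data known.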

How the data were processed

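Chromatin of HuCCT1 cells had been prepared with an enzymatic kit and precipitated with antibodies against SBNO1 and TAF4 and with IgG. According to the methods of the study, short single-end reads were trimmed and mapped to GRCh38, and normR called the peaks. The submitters' processing notes list Bowtie2 2.5.4 and Genrich 0.6.1, another peak caller, and which of the callers made the lists is not stated, nor whether these lists are the peak set that the study annotated, so that counts and shares given here describe the deposited lists only. Neither the peak threshold nor any use of the IgG library in the calls is given in the sources used here.

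The deposited files are 3 peak lists with 6 columns, among them a score, which is the authors' value, a whole number of at most 1000 whose scaling is not stated. They hold no read numbers, so the depth is unknown and limits every absence of a peak. No other per-sample columns were left out (0).

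Peaks were read with Python 3.11.15, numpy 2.4.6 and scipy 1.17.1. TSS were those of protein-coding transcripts in GENCODE 44, without the mitochondrial genome, 78567 sites in all. A peak counted for every gene with a TSS within 1 kb of its nearest edge, and peaks overlapped when they shared 1 bp. Coordinates are 1-based on GRCh38, and the printed sequences were read from that genome. Motifs were exact matches on either strand in 200 bp at the peak centre. Shares carry exact 95% Clopper-Pearson intervals, and no test was run. The functions were tested on simulated peaks and sequences.

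All 10 ETS genes are named. Of the other ETS and ERK genes those with a promoter peak may be named, and further genes only as owners of a TSS near a described peak. Coordinates are given for all promoter peaks, for the top-scoring SBNO1 peak of each gene over 1 kb from any TSS, and for IgG peaks and a few intronic peaks chosen after their values were seen. A few genes and sequences are not reported here. The genes and lists were chosen with earlier results of these data known. Alternatives tried were other distances, TSS sets, windows, score filters, overlap rules, motif windows and removal of peaks that overlap IgG.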

Additional observations from a re-analysis of the deposited data

How the results depend on the processing

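Of 71 alternative values, 55 stayed within the limits set (1.5 times for a count, the 95% interval for a share), 16 moved and 0 reversed. The score filters moved the promoter counts. With peaks at or above the median score of their list, 5 of the 10 ETS genes kept an SBNO1 promoter peak (ETS1, ELF3, EHF, GABPA and ETV4), 5 a TAF4 promoter peak (ETV5 in place of ETV4) and 4 both, beside 13.1% of all genes for SBNO1, 19.6% for TAF4 and 9.21% for both under the same filter. With peaks at the score of 1000 these numbers were 4, 5 and 3, beside 9.14%, 17.3% and 6.22%. The median score filter also left 23 SBNO1, 18 TAF4 and 1 IgG peaks in the windows, and 61.1% of those TAF4 peaks overlapped SBNO1. The gene records without the 50 kb on either side held 27 SBNO1, 22 TAF4 and 1 IgG peaks. In whole peaks in place of 200 bp, AP-1 and CCAAT were each found in 47.3% and TATAAA in 20.0% of the SBNO1 peaks, since longer sequence was searched. With 1 TSS per gene ETS1 had no promoter peak, and with the nearest TSS only ELF1 lost its TAF4 peak to WBP4. No paired analysis was possible because the antibodies had a single library each. Without replicates, no left-out library could be tried, and the unknown depth limits what a missing peak means.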
